A study of Mus musculus with 4 samples.

Results

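The Dlx, Sp and Trp63 genes described here are 10 genes known from the ectoderm and the apical ectodermal ridge of the limb bud: Dlx1, Dlx2, Dlx3, Dlx4, Dlx5, Dlx6, Sp6, Sp8, Sp9 and Trp63. They were followed through the open chromatin assigned to them in 2 lists of accessible regions, 1 per stage. A region was assigned to a gene when the nearest transcription start of a protein-coding gene was its own, or when the centre of the region lay within 2.5 kb of one of its starts. Of 22380 protein-coding genes, these 10 took 47 of 42613 regions at E9.5 and 41 of 46765 regions at E10.5. ATAC-seq, which marks open chromatin by transposase insertion, was performed on wild-type NMRI embryos with 2 biological replicates per stage, each being the forelimb pair of a single embryo. The embryos titled E9.5, which the protocol calls E9.75, kept the adjoining trunk, whereas no trunk is named at E10.5, where the tissue label also lists hindlimb buds although the source label and the protocol name forelimbs. The authors merged the replicates of a stage into 1 list, so that no value below has a replicate error, the sequencing depth is unknown, and stage and trunk tissue cannot be told apart. The lists hold whole buds, so fewer cells of a type and less accessibility per cell cannot be told apart either.

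The apical ectodermal ridge is the thickened epithelium along the distal rim of the limb bud, whose FGF signals keep the underlying mesenchyme growing. The Dlx genes encode homeodomain transcription factors and lie in the genome as pairs that are transcribed towards each other, with shared enhancers between and beside the partners. Dlx5 and Dlx6 are expressed in the ridge, and known limb enhancers of this pair lie far away within the neighbouring gene Dync1i1. Sp6, Sp8 and Sp9 encode zinc finger factors that act downstream of WNT signalling in limb ectoderm and are known to support ridge formation and Fgf8 expression. Trp63 encodes the p53 relative that ectodermal stratification depends on. Its upstream start gives the form with a full transactivation domain, and an internal start gives the shorter form, which predominates in the early epidermis.

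Sequences from selected regions of these genes are shown first. Each is the centre of a region with 100 bases on either side, read from the plus strand of mm9. Their part in the stage differences was not tested. Bases in capitals match one of the short motifs examined below. The paired sequences at Trp63 come from regions listed at E10.5 only, and the first of them holds 2 CATG cores 6 bases apart, the spacing of a p53 family site. They lie in introns of Trp63, at chr16:25839982-25840182 and chr16:25877578-25877778.
Trp63, 38.1 kb downstream of the internal start: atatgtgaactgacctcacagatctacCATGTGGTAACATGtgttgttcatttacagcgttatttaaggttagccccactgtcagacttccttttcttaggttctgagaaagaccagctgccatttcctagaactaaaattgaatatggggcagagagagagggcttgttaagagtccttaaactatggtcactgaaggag
Trp63, 75.7 kb downstream of the internal start: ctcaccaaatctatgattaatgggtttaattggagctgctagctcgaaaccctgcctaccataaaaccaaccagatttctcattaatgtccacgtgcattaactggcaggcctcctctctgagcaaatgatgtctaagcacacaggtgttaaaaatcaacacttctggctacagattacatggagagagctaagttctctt

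At Sp8, the highest-scoring region listed at E9.5 only, at chr12:119889240-119889440, and the highest-scoring distal region at E10.5, at chr12:120093387-120093587, both lie outside annotated genes. The second has 3 matches to the GC box, the motif that Sp factors bind.
Sp8, 195 kb upstream, E9.5 only: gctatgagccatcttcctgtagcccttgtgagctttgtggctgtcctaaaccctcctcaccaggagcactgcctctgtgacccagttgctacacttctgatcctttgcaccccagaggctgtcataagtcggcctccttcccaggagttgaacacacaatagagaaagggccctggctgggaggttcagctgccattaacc
Sp8, 7.82 kb downstream, both stages: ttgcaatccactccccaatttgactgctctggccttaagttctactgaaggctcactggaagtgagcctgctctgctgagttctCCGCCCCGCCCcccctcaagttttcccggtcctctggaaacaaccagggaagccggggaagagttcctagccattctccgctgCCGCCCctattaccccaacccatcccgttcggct

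Next to Dlx5 and Dlx6, chr6:6824597-6824797 lies between the ends of the paired genes, in a region listed at E9.5 only. In contrast, chr6:6736131-6736331, upstream of Dlx6, comes from a region listed at E10.5 only. Both are outside annotated genes. The first has a GC box and a TCF/LEF match.
Between Dlx6 and Dlx5, E9.5 only: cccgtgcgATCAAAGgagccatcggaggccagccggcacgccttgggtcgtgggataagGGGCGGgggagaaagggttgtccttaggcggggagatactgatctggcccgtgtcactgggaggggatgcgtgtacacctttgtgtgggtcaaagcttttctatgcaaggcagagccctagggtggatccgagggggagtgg
Dlx6, 77.1 kb upstream, E10.5 only: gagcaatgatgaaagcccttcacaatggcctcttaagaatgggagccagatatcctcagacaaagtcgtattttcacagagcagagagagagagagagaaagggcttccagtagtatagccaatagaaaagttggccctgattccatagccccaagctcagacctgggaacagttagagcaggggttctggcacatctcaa

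The last pair comes from coding sequence, at chr11:96883388-96883588 in an exon of Sp6, in the region whose rank differed most towards E9.5, and at chr2:73111817-73112017 in an exon of Sp9, in a region listed at E9.5 only.
Sp6, 3.44 kb downstream of the internal start: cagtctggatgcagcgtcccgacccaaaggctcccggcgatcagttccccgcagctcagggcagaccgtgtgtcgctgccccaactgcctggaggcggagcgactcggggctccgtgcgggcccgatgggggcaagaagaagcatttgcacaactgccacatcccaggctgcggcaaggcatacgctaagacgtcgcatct
Sp9, 1.89 kb downstream of the start: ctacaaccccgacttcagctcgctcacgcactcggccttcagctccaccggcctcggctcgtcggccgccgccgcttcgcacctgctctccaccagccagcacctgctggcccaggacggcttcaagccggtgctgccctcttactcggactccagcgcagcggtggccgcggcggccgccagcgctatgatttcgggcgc

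Regions with 1 bp or more in common with the other list are termed shared, and the rest stage-specific. At E9.5, 19 of the 47 regions of the 10 genes were stage-specific (40.4%, 95% Wilson interval 27.6 to 54.7%), against 29.9% of all E9.5 regions. At E10.5 it was 11 of 41 (26.8%, 15.7 to 41.9%), against 35% of all E10.5 regions. Both intervals, which cover counting error only and treat regions as independent, include the share of the whole list. More of their regions were listed at E9.5 only than at E10.5 only, whereas the E10.5 list is the longer one. The regions covered 65.4 kb at E9.5 and 47.8 kb at E10.5. Of the bases covered at either stage, 45.6% were covered at both. The like lengths and share for the whole lists are not given here, so these values have no baseline.

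**Figure D1:**
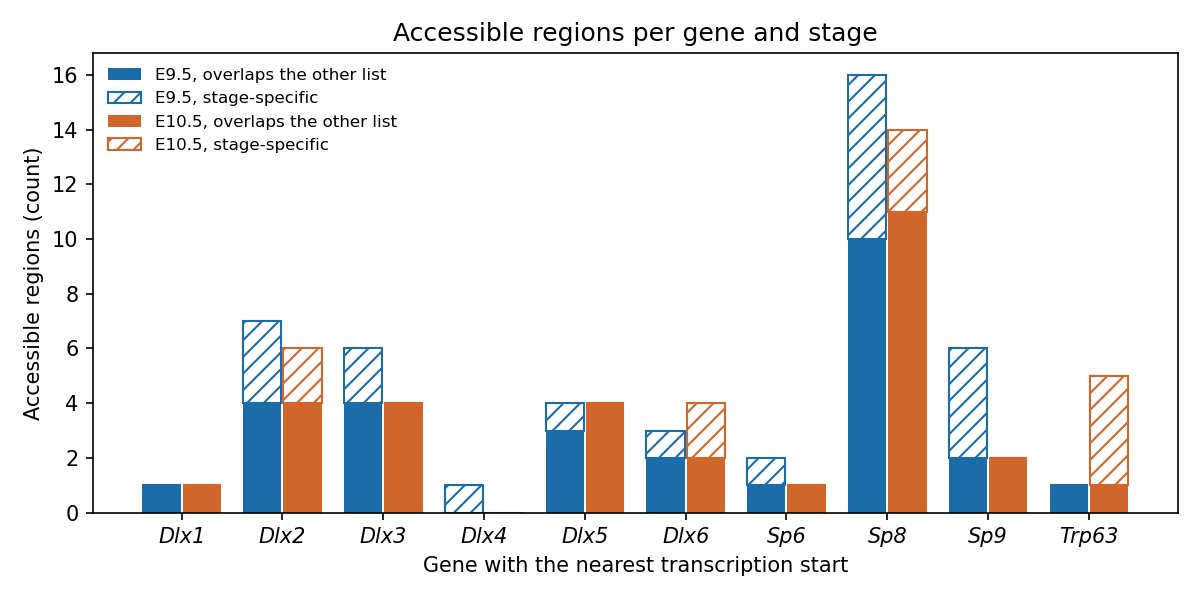
Number of accessible regions (vertical axis) assigned to each of the 10 genes (horizontal axis) at E9.5 (blue) and E10.5 (orange). Filled bars count regions that overlap the other list and hatched bars stage-specific ones. Sp8 has the most regions at both stages, 16 and 14, Sp9 goes from 6 to 2 and Trp63 from 1 to 5.

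Regions were divided by distance from a protein-coding start, those within 2.5 kb being called promoter-proximal and the others distal. Promoter-proximal regions made up 13 of 47 at E9.5 (27.7%, 16.9 to 41.8%) and 9 of 41 at E10.5 (22.0%, 12.0 to 36.7%), against 38.3% and 32.9% of the whole lists. The order of the stages was the opposite with a distance of 1 kb, which gave 14.9% and 17.1%. The farthest promoter-proximal centre lay 2.22 kb from its start (Sp8 at E10.5, score 1208.58), and the nearest distal one 2.56 kb away (Dlx6 at E10.5, score 148.79). Of the promoter-proximal regions, 5 of 13 at E9.5 were stage-specific (38.5%, 17.7 to 64.5%), against 13.1% of such regions in the list. The 5 belonged to Dlx2, Dlx3, Dlx4, Sp6 and Sp9. Most of them had low scores. Of the 6 promoter-proximal regions that scored below the list median, 4 were stage-specific, against 52.6% of all such low-scoring regions, and of the other 7 only that of Sp9 was. The list share for promoter-proximal regions at or above the median is not given here, so the count for these 7 has no baseline. At E10.5 none of the 9 was stage-specific, which allows a share of up to 29.9% by the same interval, against 5.31% in the list. For distal regions the stage-specific counts were 14 of 34 at E9.5 (41.2%, 26.4 to 57.8%; list 40.3%) and 11 of 32 at E10.5 (34.4%, 20.4 to 51.7%; list 49.6%).

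An open promoter was listed for 9 of the 10 genes at E9.5, where 65.1% of protein-coding genes had one, and for 7 at E10.5, where 62.5% had one. Dlx4 and Sp6 had a promoter-proximal region at E9.5 only, which held for 3.75% of all protein-coding genes. With a distance of 1 kb the count was 7 genes at each stage, since the centres of the broad E9.5 regions of Dlx5 and Sp8 lay farther from the start. With 5 kb it was 9 and 8 genes, since the E10.5 region of Sp6 was then included. Trp63 had one at neither stage, as did 33.8% of genes.

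Each region carries a score, the authors' scaled negative log10 of its best MACS p-value. Since such a score grows with sequencing depth, scores were compared between the stages only as percentiles, the percentage of regions of the same list that score lower. The median region of the 10 genes stood at percentile 40.8 at E9.5 and 35.7 at E10.5. Its width was 1144 bp at E9.5 (list 1100 bp) and 935 bp at E10.5 (list 1000 bp).

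Dlx1 and Dlx2, on chromosome 2, encode homeodomain factors best known from forebrain interneurons and the branchial arches. Both had open promoters at both stages. The Dlx1 promoter region, its only region, scored 938.74 at E9.5 (chr2:71366537-71368531, percentile 78.7) and 669.11 at E10.5 (chr2:71366919-71368475, percentile 78.1), so that its rank hardly differed. It also covers part of the antisense transcript Dlx1as. The best promoter region of Dlx2 scored 933.25 at E9.5 (chr2:71383480-71385570, percentile 78.5) and 462.49 at E10.5 (chr2:71383493-71385438, percentile 69.4), a somewhat lower rank. A weaker region 1.35 kb upstream of Dlx2 went the other way, from 124.38 (percentile 18.7) to 180.04 (percentile 38.2).

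Dlx2 had 7 regions at E9.5 and 6 at E10.5, of which 3 and 2 were stage-specific. The E9.5-specific ones scored 191.77 (2.78 kb downstream), 189.39 (34.5 kb upstream) and 182.45 (1.48 kb downstream). The E10.5-specific ones scored 164.13 (27.1 kb upstream) and 111.11 (52.2 kb upstream). All 5 therefore scored below the list medians of 260.35 and 241.31. The highest distal region at E9.5, 83.2 kb upstream, scored 290.46 and its partner at E10.5 116.57 (percentiles 53.2 and 16.4). Between the ends of Dlx1 and Dlx2, a stretch of 9.43 kb, the E9.5 list held 2 regions and the E10.5 list 1. The one present at both stages scored 219.5 and 71.83 (percentiles 44.3 and 0.968), close to the bottom of the E10.5 list.

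Dlx3 and Dlx4, on chromosome 11, encode further homeodomain factors, of which Dlx3 is known from placenta, hair and teeth. Both ended lower in rank or unlisted at E10.5. The Dlx3 promoter region scored 202.21 at E9.5 (chr11:94981052-94982081, percentile 41.4) and 105.01 at E10.5 (chr11:94981167-94981910, percentile 10.49). Dlx3 had 6 regions at E9.5 and 4 at E10.5, and all 4 overlapped E9.5 regions. The E9.5-specific ones were weak, with scores of 111.34 (14.5 kb upstream) and 105.67 (1.34 kb upstream). In each of its 4 shared regions the percentile was lower at E10.5. The highest of them at E9.5, 6.69 kb downstream and the only one between the ends of Dlx3 and Dlx4, scored 300.19 and then 65.8 (percentiles 54.2 and 0.258). The highest distal region of Dlx3 at E10.5 scored 147.69 (2.89 kb upstream). Dlx4 had a single region, at its promoter at E9.5 (chr11:95007087-95007977, score 147.49, percentile 27.5). At E10.5 the region nearest its main start was the one 19.5 kb away that belongs to Dlx3.

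Dlx5 and Dlx6, on chromosome 6, are the Dlx genes whose joint loss is known to cause split limb malformations. Their promoters kept similar ranks. The Dlx6 promoter region scored 1348.53 at E9.5 (chr6:6812345-6815272) and 1021.49 at E10.5 (chr6:6812434-6815262), at percentiles 85.8 and 86.4, the highest among the Dlx genes at both stages. At Dlx5, 1 broad region of 4888 bp covered the promoter and most of the gene at E9.5 (chr6:6828043-6832930, score 422.65, percentile 62.7). At E10.5, it was represented by 2 regions, one over the promoter with a score of 307.86 (chr6:6831369-6833107, percentile 58.2) and one over the gene body, 3.21 kb downstream, with 347.6 (percentile 61.8). Where 1 region of a list corresponds to 2 in the other, counts of regions differ without a gain of accessible ground.

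Around the pair, the stages differed in position. The region between the ends of Dlx6 and Dlx5, printed above, was listed at E9.5 alone with a score of 199.58 (percentile 40.8). That 9.24 kb stretch had no region at E10.5. A further E9.5-specific region lay 44.1 kb upstream of Dlx6 and scored 111.95. The E10.5-specific regions of Dlx6 lay 77.1 kb and 8.07 kb upstream and scored 360.75 (percentile 62.9) and 109.01 (percentile 12.6). The first of these was the highest-scoring E10.5-specific region of the whole set. The other distal region of Dlx6 is shared, with 197.29 at E9.5 and 148.79 at E10.5. Upstream of Dlx5, a shared region 3.03 kb away scored 113.47 at E9.5 and 244.71 at E10.5 (percentiles 13.6 and 50.5), the largest upward shift among the Dlx genes. Another, 33.2 kb away, scored 124.1 and 152.73.

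The nearest-start rule leaves out regions inside Dync1i1, so these were counted separately. Within the 302 kb body of Dync1i1 there were 3 regions at E9.5, of which 1 was stage-specific, and 10 at E10.5, of which 8 were. Of the 9 distal E10.5 regions, 8 were thus stage-specific, against 49.6% of distal regions in the list. By GC content the list share was 69.0% under 45% and 34.7% between 45 and 55%, and the 8 regions fell in both classes. The 3 highest of these scored 991.22 (chr6:5778118-5780058, percentile 85.9), 806.75 (chr6:5757624-5758806, percentile 82.0) and 642.48 (chr6:5752099-5753750, percentile 77.2), each above the E10.5-specific regions nearest the 10 genes. They lie in introns, and their GC content was between 42.5 and 43.7%. A shared region that overlaps an exon of Dync1i1, chr6:5955395-5956671 at E9.5, scored 602.49 and 973.93 (percentiles 69.9 and 85.6). The genes these regions act on were not measured here. In the bodies of the other neighbours examined the counts were near equal at Metap1d (1 and 1), Itga3 (2 and 2), Kat7 (1 and 1), Ola1 (2 and 1), Tprg (4 and 5) and Macc1 (0 and 1), and higher at E10.5 for Itgb8 (1 and 4).

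**Figure D2:**
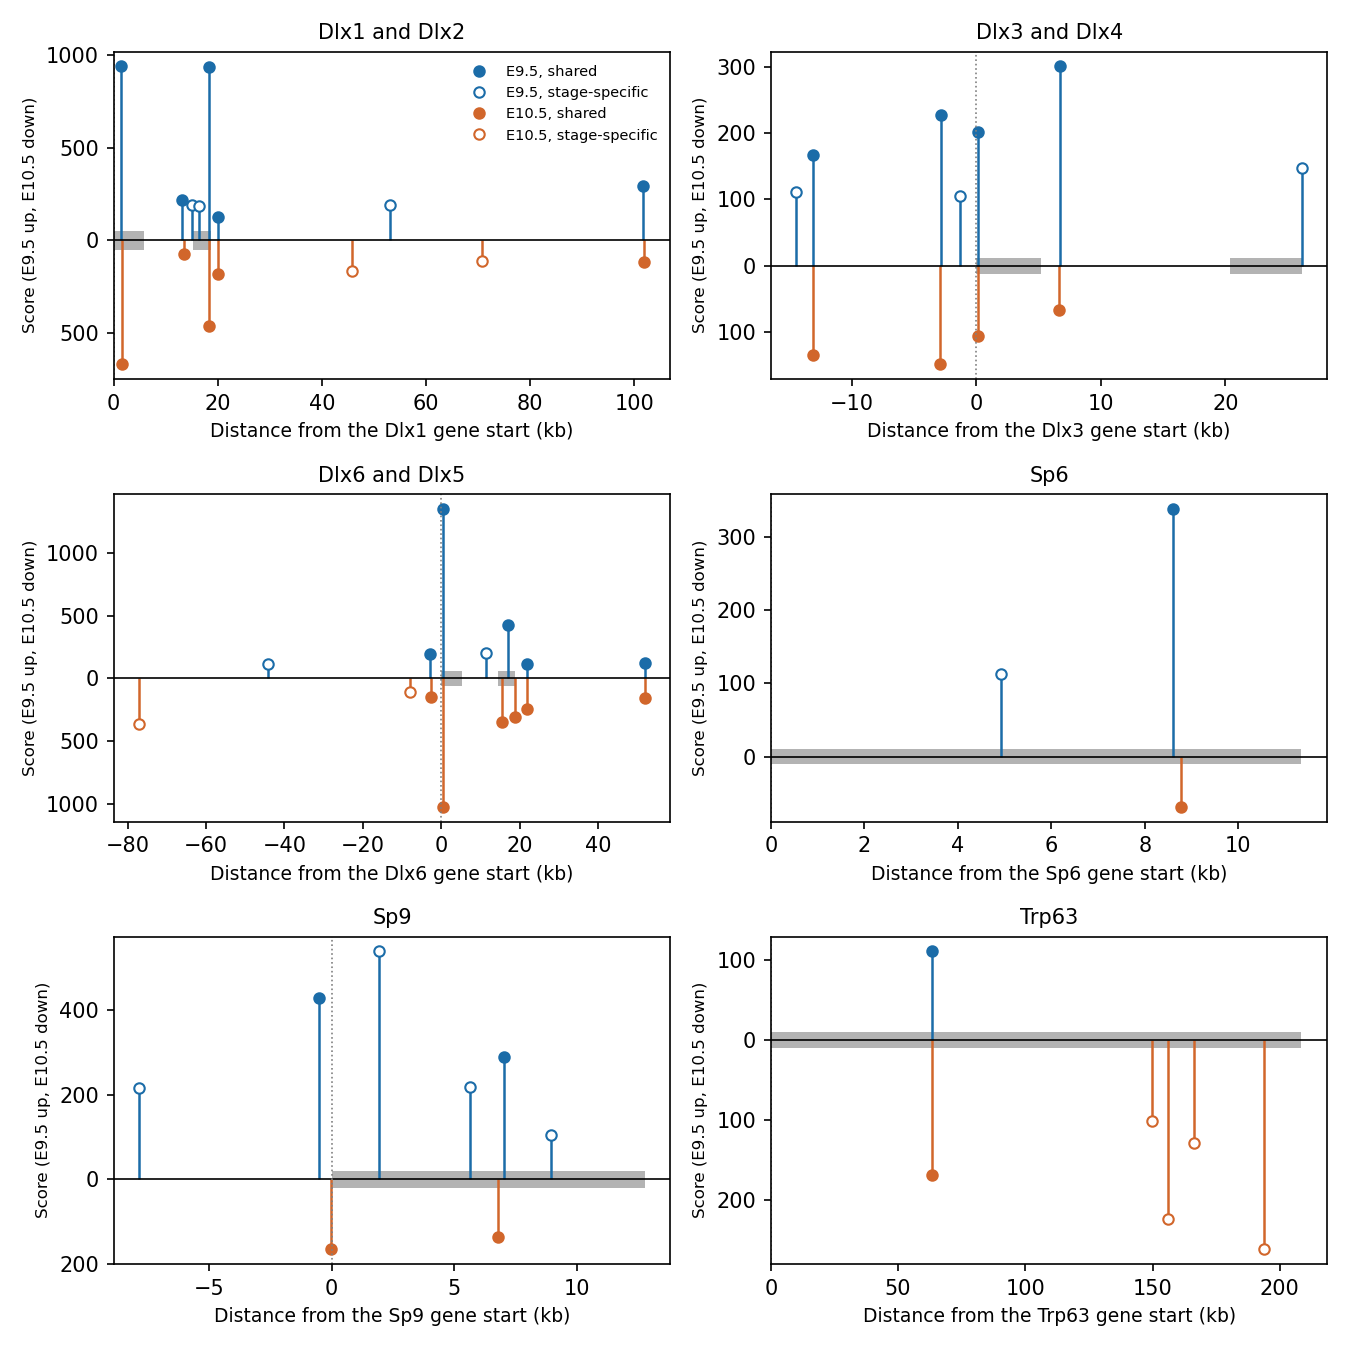
Scores of the regions at the Dlx pairs, Sp6, Sp9 and Trp63 (vertical axis, E9.5 upwards in blue and E10.5 downwards in orange) against the position of their centres (horizontal axis, kb from the gene start of the first gene named). Filled points are shared regions, open points stage-specific regions and grey bars gene bodies. The 4 open orange points of Trp63 stand beyond the only blue point, and all open points at Sp9 are blue.

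Sp8, on chromosome 12, had more regions than any other gene of the set, 16 at E9.5 and 14 at E10.5. That is more than 99.4% of protein-coding genes had at E9.5 and more than 98.3% at E10.5. Its regions spread from 249 kb upstream to 35.8 kb downstream of its starts. The nearest-start rule gives a gene all the ground closest to it, and the neighbouring starts of Sp8 lie 623 kb apart. The part of this in the count was not tested. The promoter was covered by 1 region of 4317 bp at E9.5 (chr12:120084843-120089159, score 2140.68, percentile 93.9), the highest percentile of the set at either stage. At E10.5 this stretch held 2 regions, which scored 668.06 (chr12:120084538-120086243) and 1208.58 (chr12:120086627-120089140, percentile 89.4).

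**Figure D3:**
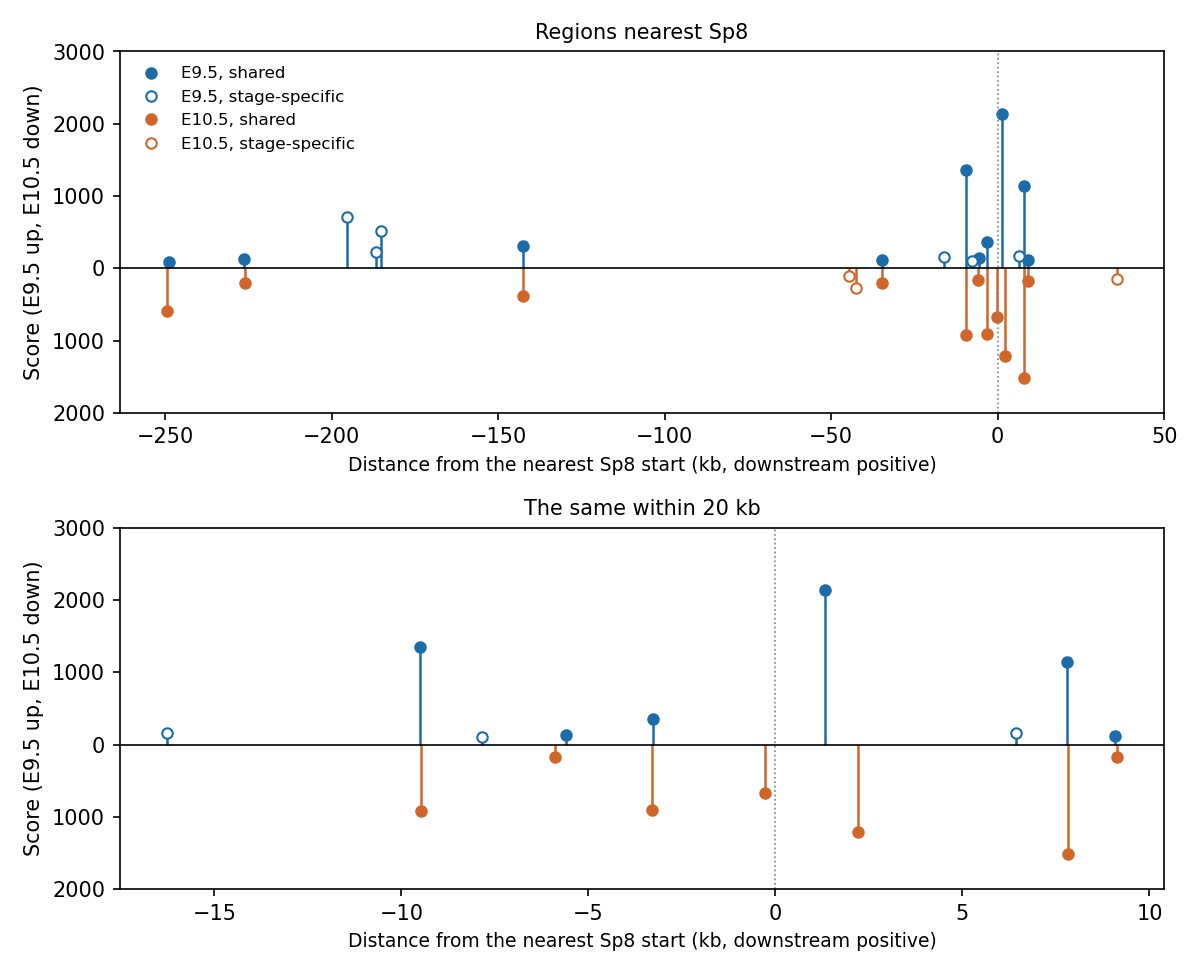
Scores of the regions nearest Sp8 (vertical axis, E9.5 upwards in blue and E10.5 downwards in orange) against the distance of their centres from the nearest Sp8 start (horizontal axis, kb). Filled points are shared and open points stage-specific regions, and the lower panel shows the surroundings of the gene. The 3 open blue points between 185 and 195 kb upstream have no orange point opposite, whereas the open orange points lie 42.6 and 44.8 kb upstream and 35.8 kb downstream.

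The distal regions of Sp8 differed most far from the gene. A group of 3 E9.5-specific regions lay upstream, at chr12:119888769-119889912 (195 kb, score 710.46, percentile 73.2), chr12:119898659-119900739 (185 kb, score 511.49, percentile 66.7) and chr12:119897590-119898614 (187 kb, score 224.42, percentile 45.1). The first was the highest-scoring E9.5-specific region of the 10 genes. The other E9.5-specific regions scored 163.69 (6.43 kb downstream), 162.59 (16.3 kb upstream) and 100.95 (7.84 kb upstream). At E10.5 the specific regions scored 271.36 (chr12:120041640-120042747, 42.6 kb upstream, percentile 54.1), 148.81 (35.8 kb downstream, within the gene Abcb5) and 109.11 (44.8 kb upstream). None of them reached the percentiles of the 2 highest E9.5-specific regions.

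Closer to Sp8, strong distal regions were present at both stages. The highest at E9.5, 9.48 kb upstream, scored 1355.72 and then 919.93 (percentiles 85.9 and 84.5). The highest at E10.5, 7.82 kb downstream, scored 1144.35 and then 1513.7 (percentiles 82.5 and 92.8). A region 3.27 kb upstream scored 358.39 and then 906.57 (percentiles 58.8 and 84.2). The widest shift of the set belonged to the farthest region, 249 kb upstream, with 84.08 at E9.5 and 587.88 at E10.5 (percentiles 2.91 and 75.3). Its widths were 774 and 1783 bp, so that the regions overlapped by less than 50% of the longer one.

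Sp9, on chromosome 2, went from 6 regions and 9056 bp at E9.5 to 2 regions and 1752 bp at E10.5. At E9.5 its promoter-proximal regions scored 538.43 (chr2:73110809-73113025, percentile 67.8) and 428.46 (chr2:73108535-73110395, percentile 63.0). The first, 1.89 kb into the gene with 68.4% GC, was stage-specific, and the second had a partner of 165.23 at E10.5 (chr2:73109548-73110364, percentile 34.4). The other E9.5-specific regions scored 218.96 (5.59 kb downstream), 214.72 (7.86 kb upstream) and 105.34 (8.90 kb downstream). The remaining distal region is shared, 6.99 kb downstream, with 288.42 and 136.47 (percentiles 53.05 and 24.9). Every Sp9 region was therefore either unlisted or of lower rank at E10.5.

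Sp6, on chromosome 11, had 2 regions in the E9.5 list and 1 in the E10.5 list. The promoter-proximal one, at the internal start, was E9.5-specific with a score of 113.55 (chr11:96879046-96880211, percentile 13.6). The upstream start of Sp6 had no region within 2.5 kb at either stage, the nearest being 4.92 kb away at E9.5 and 8.78 kb away at E10.5. The shared region over coding sequence of Sp6 scored 338.8 at E9.5 (chr11:96882534-96884086) and 68.52 at E10.5 (chr11:96883031-96883946), at percentiles 57.4 and 0.524, the widest downward shift of the set. The annotation also places Gm11532 there.

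Trp63, on chromosome 16, was the gene of the set without a promoter-proximal region, and E9.5 and E10.5 listed 1 and 5 regions for it. Its upstream start was 63.2 kb from the nearest region at both stages. Its internal start was 54.9 kb from the nearest region in the E9.5 list and 31.7 kb in the E10.5 list. The only E9.5 region assigned to Trp63, chr16:25746673-25747450 between the starts, scored 111.13 and its E10.5 partner 168.49 (percentiles 12.5 and 35.3). From the internal start to the gene end, a stretch of 90.2 kb, the E9.5 list held 0 regions and the E10.5 list 4. These counts depend on the assignment rule. Within 100 kb of the Trp63 starts, the E9.5 list held 2 regions and the E10.5 list 5. The added E9.5 region, which lies nearer the start of another gene, was stage-specific and scored 369.65.

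The 4 E10.5-specific regions of Trp63 had scores of low to middle rank. They scored 261.88 (chr16:25877182-25878175, percentile 52.9), 224.05 (chr16:25839608-25840556, percentile 47.2), 129.1 (chr16:25849799-25850659, percentile 21.9) and 101.33 (chr16:25833225-25834117, percentile 8.40). Their centres lay 75.7, 38.1, 48.2 and 31.7 kb downstream of the internal start. The first overlaps an exon of Trp63 and the others are intronic. Without Trp63, the E10.5-specific share of the set was 19.4% instead of 26.8%.

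For regions present at both stages, the E9.5 region was set against its highest-scoring E10.5 partner. Of 28 such regions, 15 had a lower percentile at E10.5 (53.6%, 35.8 to 70.5%), against 49.7% of all shared regions, and 13 a higher one. Sp8 and the rest differed in direction. At Sp8, 8 of 10 regions had a higher percentile at E10.5, with a median difference of 15.0 points, whereas at the other 9 genes 13 of 18 had a lower one, with a median difference of -10.4 points. Over all shared regions the median difference was 0.087 points, with a 10th percentile of -24.4 and a 90th of 27.1. The median size of the difference, regardless of sign, was 9.60 points.

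**Figure D4:**
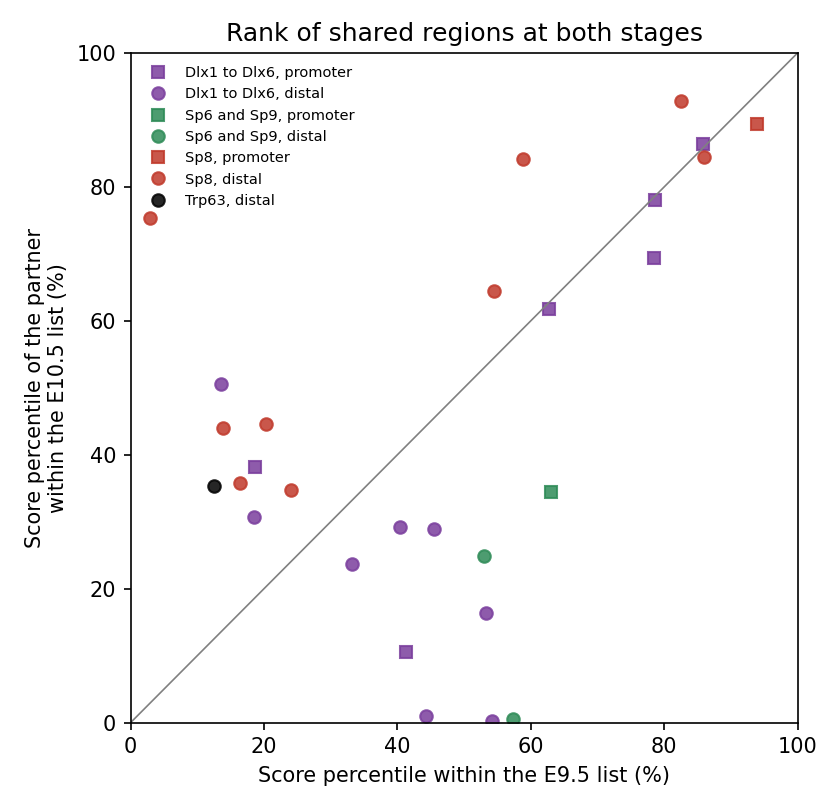
Score percentile of the 28 shared regions in the E9.5 list (horizontal axis, %) against that of their highest-scoring partner in the E10.5 list (vertical axis, %). Squares are promoter-proximal and circles distal regions, coloured by gene group, and the line marks equal rank. Of the 10 Sp8 regions 8 lie above the line, while those of Sp6 and Sp9 all lie below it.

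Base composition moved with these differences across both lists. Among all shared distal regions of the E9.5 list, the median difference was 14.7 points where the GC content of the region was under 45%, 2.64 points between 45 and 55%, and -7.83 points at 55% or more. The distal regions of the 10 genes followed the same order, with 6 of 6 higher at E10.5 in the first class, 5 of 10 in the second and 0 of 4 in the third. The like shares of the whole list are not given here. Apart from the Trp63 region, those of the first class all belonged to Sp8, so gene and base composition cannot be told apart there. Those of the third belonged to Dlx2, Dlx3, Sp6 and Sp8. Of the distal E10.5 regions in the whole list, 69.0% were stage-specific under 45% GC, 34.7% between 45 and 55% and 7.40% at 55% or more. For the 10 genes these counts were 7 of 14, 4 of 13 and 0 of 5. The E9.5 list differed less by composition, with 38.3%, 40.7% and 42.8% stage-specific, and 7 of 13, 3 of 13 and 4 of 8 for the 10 genes. The E10.5-specific distal regions of the 10 genes had a median GC content of 42.2%, against 48.0% for their shared ones. The part of base composition in the differences at Sp8, Sp9, Sp6, Dlx3 and Trp63 was not tested.

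Short motifs were counted on both strands within 150 bases of each centre, as a description of sequence and not of binding. The homeodomain core TAATTA, which Dlx proteins can bind, occurred in 6 of 47 regions at E9.5 (5.12% of the whole list) and in 7 of 41 at E10.5 (8.78%). They included regions of Dlx2, Sp8, Sp9 and Trp63. The GC box GGGCGG occurred in 15 of 47 (30.6% of the list) and 11 of 41 (25.7%). By class, it was found at E9.5 in 11 of 34 distal regions (list 15.1%) and 4 of 13 promoter-proximal ones (list 55.4%), and at E10.5 in 6 of 32 (list 10.4%) and 5 of 9 (list 56.9%). The region 9.48 kb upstream of Sp8 had 4 at E9.5, and the E9.5-specific one 2.78 kb downstream of Dlx2 had 5. The TCF/LEF motif CTTTGAT was found in 3 of 47 (4.10%) and 2 of 41 (5.11%). The SMAD palindrome GTCTAGAC occurred in none (0.284% and 0.306% of the lists), and the SMAD motif GGCGCC, which can share bases with the GC box, in 9 of 47 (13.0%) and 5 of 41 (11.2%). Paired CATG cores 6 bases apart were present in 0 of 47 and 1 of 41 (0.512% and 0.511% of the lists), the latter being the Trp63 region 38.1 kb downstream of the internal start.

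Other genes of the ridge and limb ectoderm, a list of 30, were examined the same way. A promoter-proximal region was listed for 27 of these in E9.5 buds and for 22 in E10.5 buds, against 65.1% and 62.5% of all protein-coding genes. Those with one at E9.5 only, as 3.75% of all genes had, were Fgf4 and Fgf8, which encode ridge signals, the WNT ligand gene Wnt10b, the E-cadherin gene Cdh1, the epidermal factor gene Grhl3 and the keratin gene Krt18. Their best promoter-proximal regions stood low, from percentile 9.55 (Fgf4) to 42.7 (Fgf8). Of all E9.5 promoter-proximal regions that scored below the list median, 52.6% were stage-specific. Krt14 had one at E10.5 only, and Fgf17 and the basal keratin gene Krt5 had none at either stage. The 150 E9.5 regions of the 30 genes were stage-specific in 33.3% and their 165 E10.5 regions in 37.6%, against 29.9% and 35% of the whole lists. Of the 50 E9.5-specific regions of the list, the highest numbers belonged to Fgfr2 (10), which encodes an FGF receptor of the ectoderm, Bmp2 (5) and Bmp7 (4). Of the 62 E10.5-specific ones, they belonged to Bmp2 (21), to Rspo2 (9), which encodes a WNT agonist, and to En1 (7), a factor of ventral ectoderm. Of 8 relatives, Sp1 to Sp5, Sp7, Trp53 and Trp73, 7 had an open promoter at both stages, and Sp7 at neither.

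Markers of the tissues in the samples were examined in both lists too. Of 13 ectoderm markers, which overlap the list above, 11 in E9.5 buds and 9 in E10.5 buds had a promoter-proximal region. In the E9.5 list 12 of their 37 regions were stage-specific (32.4%), and in the E10.5 list 10 of 37 (27.0%), against 29.9% and 35% of the whole lists. All 9 limb mesenchyme markers had an open promoter at both stages, and their regions were stage-specific in 19.7% at E9.5 and 45.7% at E10.5. Msx1 belongs both to these markers and to the ridge and ectoderm list above. Of the trunk markers of somite and neural tube, 7 of 8 were matched to the annotation, and 7 and 6 had a promoter-proximal region. Here 41.8% of regions were stage-specific at E9.5 and 15.4% at E10.5. Several of the 10 genes are also known to be expressed in the neural tube, neural crest or trunk ectoderm. The part of tissue composition in the differences above was not tested.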

How the data were processed

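ATAC-seq reads were aligned by the authors to mm9 with Bowtie 1.1.0, and regions were called per replicate with MACS 1.4 (versions per the submitters' processing notes). MSPC was used by the authors to merge both replicates, and the deposited list of each stage gives every region a score, the best MACS p-value as a scaled negative log10 (lowest 60.52 at E9.5 and 60.44 at E10.5). Regions were annotated here with GENCODE vM1 on NCBIM37, the assembly behind mm9, by the distance from the region centre to the nearest of 70064 protein-coding starts. Code was run in Python 3.11.15 with pandas 2.3.3, numpy 2.4.6 and scipy 1.17.1, and the overlap and assignment steps were tested on simulated regions. No test was made, since 1 list per stage has no replicate error. Wilson intervals (95%) cover counting error only. Replicate-level values and sequencing depth were not analysed here. The 10 genes and all gene lists were chosen with earlier results of these data known. For each gene and stage the best promoter-proximal region, the best distal region and up to 3 stage-specific regions of highest score were to be named, and further regions were named after their values were seen. Genes of the other lists were named where they lacked a promoter-proximal region or had the most stage-specific regions. The overlap, score threshold, promoter distance and assignment rule were varied, and each gene was left out in turn.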

Additional observations from a re-analysis of the deposited data

How the results depend on the processing

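Of 138 alternatives, 116 left a share within its Wilson interval or a count or length within 1.5 times, and 22 moved it further. In 16 of 16 settings the stage-specific share was higher at E9.5 than at E10.5. All settings reuse the same 2 lists and mostly the same regions, so their agreement is not independent support for a difference. In the main setting both Wilson intervals include the share of the whole list. With a reciprocal overlap of at least 50% in place of 1 bp, the shares were 48.9% and 41.5%. The whole-list shares given above use the 1 bp rule and are not a like comparison for these. Restriction to the higher-scoring 50% left 17 regions at E9.5 and 16 at E10.5, covering 35017 and 26433 bp, with a promoter-proximal share of 37.5% at E10.5. Restriction to the 10000 highest-scoring regions left 6 and 5 regions and 14801 and 10360 bp, with 4 and 2 genes having a promoter-proximal region and promoter-proximal shares of 66.7% and 40.0%. Both settings remove regions by construction. The promoter-proximal share at E9.5 was 14.9% with a distance of 1 kb and 42.6% with 5 kb, and at E10.5 it was 17.1% and 39.0%, so that the share was higher at E10.5 with 1 kb. The genes with a promoter-proximal region then numbered 7 and 7 with 1 kb and 9 and 8 with 5 kb. Taking every region within 100 kb of a start gave 67 regions at E9.5 and 56 at E10.5, with promoter-proximal shares of 41.8% and 39.3%, where promoters of neighbouring genes enter. With each gene left out in turn, the E9.5 set ranged from 31 to 46 regions and from 43447 to 64610 bp, and the E10.5 set from 27 to 41 regions and from 28622 to 47848 bp. The lowest values are those without Sp8. The stage-specific share ranged from 36.6 to 41.9% at E9.5 and from 19.4 to 29.7% at E10.5, and the promoter-proximal share from 25.0 to 38.7% and from 20 to 25.9%. No paired analysis was possible because the replicates of each stage were combined into 1 list, and leaving out a replicate was not run for the same reason.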
